A study of Mus musculus with 12 samples.

Results

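The 10 genes *Cftr*, *Sctr*, *Slc4a2*, *Aqp1*, *Slc5a1*, *Slc10a2*, *Pkhd1*, *Bicc1*, *Pkd2* and *Ggt1* serve mature bile duct cells in secretion, reabsorption and the primary cilium. They were taken by symbol from a table of 25676 genes, and all 10 were found there. RNA was sequenced from the whole livers of mice, in 12 samples, on a C57BL/6 background, 3-4 months old. WT samples were 3 of males and 3 of females, and the KO samples, labelled Foxa3-Cre YAP1 KO, were also 3 of each sex. *Foxa3* drives Cre in the early gut endoderm that gives rise to both hepatocytes and bile duct cells, so the deletion is not limited to ducts, and the labels do not say whether the WT mice carried Cre or floxed alleles. Published work on this model describes KO livers that lack intrahepatic bile ducts, and the question was whether genes of mature duct function were lower in them.

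Bile duct cells, or cholangiocytes, adjust the bile that hepatocytes release. Secretin binds its receptor SCTR and raises cyclic AMP, which opens the apical chloride channel CFTR. Chloride is then exchanged for bicarbonate by the anion exchanger AE2 (*Slc4a2*), and water follows through the aquaporin AQP1. The same cells take glucose back from bile with SGLT1 (*Slc5a1*) and bile acids with ASBT (*Slc10a2*), and the ectoenzyme GGT1 breaks down biliary glutathione. Their primary cilium senses flow through polycystin-2 (*Pkd2*) and fibrocystin (*Pkhd1*), and mutations in either gene give liver cysts. BICC1 is an RNA-binding protein whose loss also gives cystic organs.

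Of the 7 genes that could be tested across the table, 5 were higher and 0 lower in KO as deposited, where 50.1% of all genes were higher and 4.82% lower. After rescaling the libraries 3 of these were higher and 0 lower, where 20.6% of all genes were higher and 18.8% lower. The 3 include *Slc5a1*, which passed the filter on low values only through its KO level. *Bicc1* rose from 1.07 ± 0.461 to 7.12 ± 2.24 TPM (SD, n = 6), *Slc10a2* from 8.74 ± 6.36 to 28.3 ± 9.97 TPM and *Slc5a1* from 0.310 ± 0.136 to 2.76 ± 0.70 TPM. TPM is a transcript's share of the library per unit of length, so levels can also be compared between genes. *Slc4a2* and *Pkd2* were higher only before rescaling, and *Pkhd1* and *Aqp1* did not pass the test. *Cftr*, *Sctr* and *Ggt1* were at 10 reads or fewer per library in both genotypes. Whole liver holds few duct cells, and in such bulk RNA fewer cells of a type cannot be told apart from less RNA per cell.

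**Figure D1:**
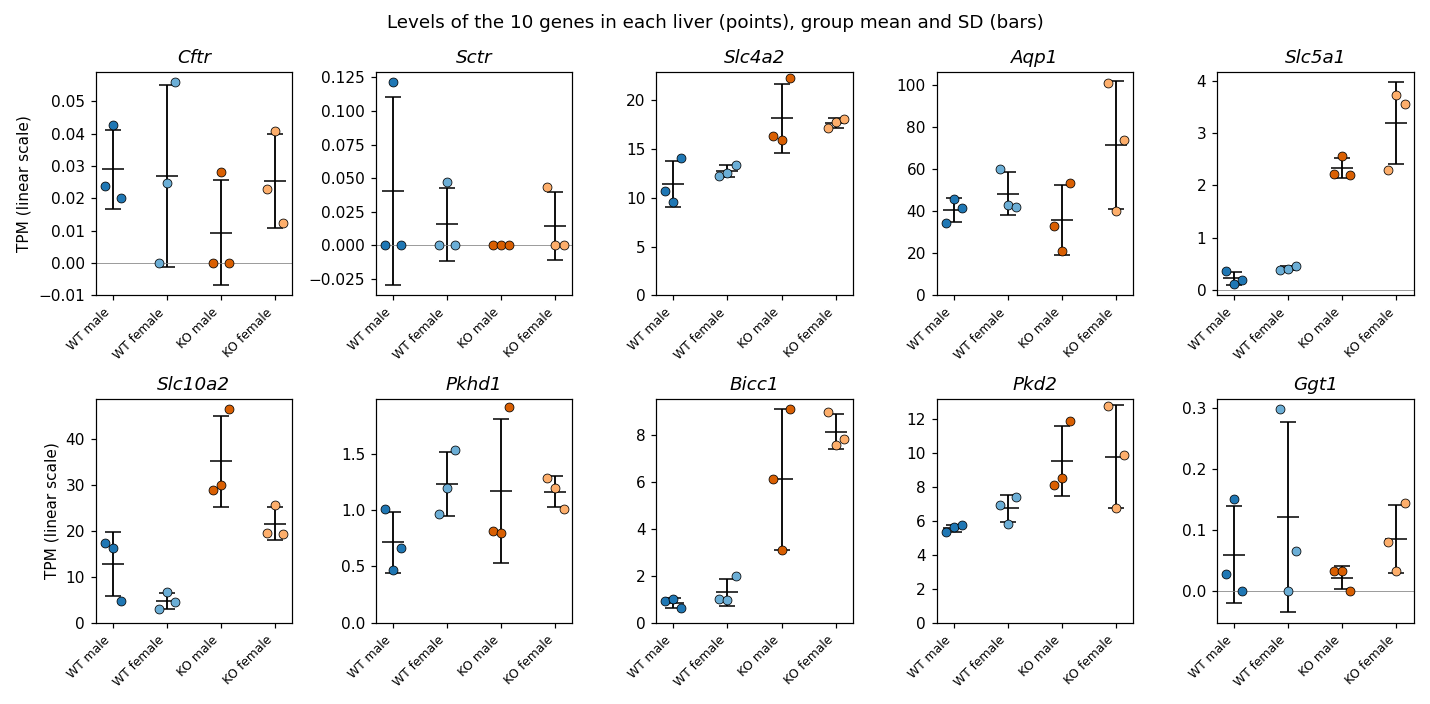
TPM on a linear axis for the 10 genes in each of the 12 livers (points), with the mean and SD of each group of 3 (bars); the axes differ between panels. The KO points of *Slc5a1*, *Bicc1*, *Slc10a2* and *Slc4a2* lie above all WT points, while those of *Cftr*, *Sctr*, *Ggt1*, *Pkhd1*, *Aqp1* and *Pkd2* overlap with WT.

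The sequence before the transcription start is shown for the reabsorption genes *Slc5a1* and *Slc10a2*, which rose, and for the cilium genes *Pkhd1* and *Pkd2*, which did not rise under both scalings. RefSeq (GRCm38.p6) held a start for 8 of the 10 genes, among them 4 starts for *Ggt1* and 2 for *Slc4a2*. The windows open 250 bases before the RefSeq start and are cut where an annotated transcript of the gene begins. They are chr5:33103969-33104218 (plus strand) for *Slc5a1*, chr8:5105352-5105537 (minus strand) for *Slc10a2*, chr1:20618065-20618307 (minus strand) for *Pkhd1* and chr5:104459207-104459449 (plus strand) for *Pkd2*. Capitals mark matches on either strand to GGAATG (the TEAD motif), GTTAAT (the opening letters of the HNF1 motif) and TGANTCA (the AP-1 motif).
Slc5a1: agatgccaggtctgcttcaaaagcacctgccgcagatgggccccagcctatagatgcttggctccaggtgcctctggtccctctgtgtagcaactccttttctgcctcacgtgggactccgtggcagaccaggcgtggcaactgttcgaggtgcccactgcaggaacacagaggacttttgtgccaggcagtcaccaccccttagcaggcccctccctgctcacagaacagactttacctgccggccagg
Slc10a2: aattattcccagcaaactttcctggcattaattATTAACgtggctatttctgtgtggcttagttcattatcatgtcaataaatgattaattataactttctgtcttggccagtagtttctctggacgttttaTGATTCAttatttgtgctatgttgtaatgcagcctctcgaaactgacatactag
Pkhd1: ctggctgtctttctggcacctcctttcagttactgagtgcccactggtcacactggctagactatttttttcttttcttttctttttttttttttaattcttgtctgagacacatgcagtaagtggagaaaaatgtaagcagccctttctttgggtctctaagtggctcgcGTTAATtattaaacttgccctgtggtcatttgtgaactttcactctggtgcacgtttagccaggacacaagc
Pkd2: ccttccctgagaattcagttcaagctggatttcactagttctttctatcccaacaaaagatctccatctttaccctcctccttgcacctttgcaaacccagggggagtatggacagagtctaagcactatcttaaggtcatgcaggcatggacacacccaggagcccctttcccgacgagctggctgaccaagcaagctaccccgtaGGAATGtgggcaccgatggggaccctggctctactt
The *Slc10a2* window held 1 match to GTTAAT, 217 to 212 bases before the RefSeq start, and 1 to TGANTCA, 118 to 112 bases before it. The *Pkhd1* window held GTTAAT 79 to 74 bases before the start, and the *Pkd2* window held GGAATG 43 to 38 bases before it. Among 32851 RefSeq windows of 250 bases, 12.6% held GGAATG, 6.43% held GTTAAT and 6.75% held TGANTCA. The *Slc5a1* window held none of these letters.

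A few facts on the libraries bear on these values. TPM steps of low genes are whole multiples of the worth of 1 read, which gave back whole reads for 17320 of the 17332 genes above 0 TPM. These genes carried 15261120 to 22046399 reads per library and 74.1% to 82.1% of its TPM. *Yap1* itself was at 39 to 150 reads in the KO libraries and at 996 to 1867 in the WT libraries, and 4 Y-linked genes summed to at least 52.5 TPM in males and at most 0.122 TPM in females, so the labels held. Hepatocyte markers, 12 genes, summed to 84426 to 114141 TPM in WT and 63444 to 87844 TPM in KO (1 higher and 4 lower past the test as deposited, 0 higher and 6 lower rescaled). The 10 macrophage markers summed to 92.6 to 310 TPM in WT and 532 to 1089 TPM in KO (10 higher as deposited, 9 rescaled). The part of these cells in the values below was not tested. The median difference between KO and WT over all 12278 tested genes, those with a mean of at least 0.5 TPM, was 0.35 on the log2(TPM + 1) scale. After median-of-ratios rescaling, which sets the typical gene to the same level in all libraries, it was -0.04. Differences are therefore given on both scales below, and on the log2(TPM + 1) scale the change of low genes is understated.

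Of the 10 genes, 7 passed the filter on low values and 3 (*Cftr*, *Sctr* and *Ggt1*) did not. *Slc5a1* passed it only through its KO level, so the counts below describe the 7 and support nothing about the 10. With limma, 5 of the 7 (4 without *Slc5a1*) were higher and 0 lower in KO at an adjusted p under 0.05, beside 50.1% of all tested genes higher and 4.82% lower, so that a rise was common to many genes. After rescaling, 3 of the 7 (2 without *Slc5a1*) were higher and 0 lower, beside 20.6% of all genes higher and 18.8% lower. The median log2 fold change of the 7 was 0.55 as deposited and 0.14 rescaled. All 6 KO values lay above all 6 WT values for 4 of the 7 as deposited, beside 28.7% of all tested genes, and for 2 after rescaling, *Slc5a1* and *Bicc1*, beside 10.6%. In the authors' deposited table, *Bicc1* (log2 fold change 2.34), *Slc5a1* (2.71) and *Slc10a2* (0.75) have FDR p-values printed below 0.05, and the other 7 genes do not.

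**Figure D2:**
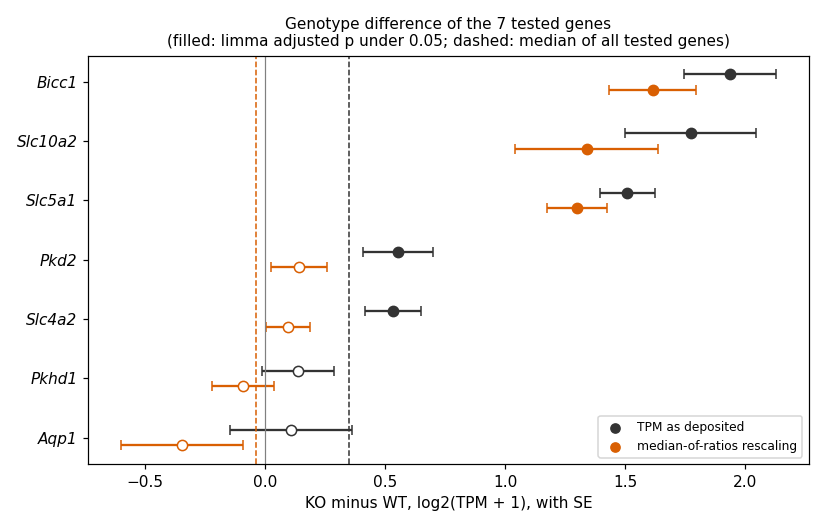
KO minus WT difference in log2(TPM + 1) with its standard error for the 7 tested genes, on TPM as deposited (black) and after median-of-ratios rescaling (orange); filled points passed limma's adjusted p of 0.05 and dashed lines mark the median of all tested genes. *Bicc1*, *Slc10a2* and *Slc5a1* stay filled on both scales, while *Pkd2* and *Slc4a2* move from 0.55 and 0.53 to 0.14 and 0.10.

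The genes that start ductal secretion were barely detected. *Sctr*, the secretin receptor (ENSMUSG00000026387, chromosome 1, 120006894 to 120063536 on the plus strand of GRCm38), had 0, 3 and 0 reads in the WT males, 0, 1 and 0 in the WT females, none in the KO males, and 1, 0 and 0 in the KO females. That is 4 reads over 6 WT libraries and 1 read over 6 KO libraries. A library without a read can still hold up to 3 reads' worth, which for *Sctr* is 0.106 to 0.171 TPM depending on the library. *Cftr*, the chloride channel (ENSMUSG00000041301, chromosome 6, 18170687 to 18322768, plus strand), had 2, 4 and 2 reads in the WT males, 0, 2 and 6 in the WT females, 0, 2 and 0 in the KO males and 2, 3 and 1 in the KO females. From its 16 WT and 8 KO reads, after adjusting for the TPM worth of 1 read in each library, the KO to WT ratio was 0.602 with an exact 95% interval of 0.223 to 1.49, which covers counting error only. In levels this was 0.0280 ± 0.0194 TPM in WT and 0.0174 ± 0.0163 TPM in KO (SD, n = 6), with an exact permutation p of 0.34, two-sided and stratified by sex. After rescaling, *Cftr* was at 0.0336 ± 0.0235 TPM in WT and 0.0151 ± 0.0145 TPM in KO (exact permutation p = 0.155). For *Sctr* the exact permutation p was 0.5 on both scales. The WT and KO ranges of both genes overlapped, and a difference was not detectable at this depth.

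*Ggt1* (ENSMUSG00000006345, chromosome 10, 75561604 to 75586200, plus strand), often used as a serum and tissue marker of duct injury, was just as low. It had 1, 6 and 0 reads in the WT males, 10, 0 and 3 in the WT females, 1, 1 and 0 in the KO males and 3, 1 and 5 in the KO females. Single libraries thus set its WT level, with 10 of the 20 WT reads in WT female replicate 1 and 6 in WT male replicate 2. From 20 WT and 11 KO reads, the KO to WT ratio adjusted in the same way was 0.662 (exact 95% interval 0.286 to 1.45, counting error only) and the exact permutation p was 0.55. After rescaling, its levels were 0.107 ± 0.132 TPM in WT and 0.0459 ± 0.0433 TPM in KO (SD, n = 6; exact permutation p = 0.38). The annotation gives this gene 20 transcripts from several starts, and isoforms were not analysed here.

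Common duct markers were read from the same libraries as a check. *Krt19*, a keratin of duct cells, had 12 to 46 reads per WT library and 1 to 33 per KO library, a log2 fold change of -0.12 (limma adjusted p = 0.707; -0.36 rescaled, adjusted p = 0.269). In the authors' deposited table, *Krt19* has a log2 fold change of -1.50 and *Epcam* one of -1.38, each with an FDR p-value of 0.02. The limma values here are differences in log2(TPM + 1), which understates changes of genes this low, so the sizes are unlike measures. From the reads, with the same adjustment as for *Cftr*, the KO to WT ratio was 0.866 for *Krt19* (exact 95% interval 0.674 to 1.11) and 0.537 for *Epcam* (0.397 to 0.721), counting error only. All such read ratios follow TPM as deposited. They were not computed on rescaled TPM, where the log2 differences of both genes were more negative. *Krt7*, another such keratin, had 2 to 31 reads in WT and 3 to 26 in KO. *Epcam*, an adhesion molecule of duct cells, had 16 to 48 reads in WT and 7 to 16 in KO, and it fell by 0.35 on the log2 scale (limma adjusted p = 0.0312; -0.53 rescaled, adjusted p = 0.00565). WT female replicate 3, the library with the most reads in all, held the highest *Krt19*, *Epcam*, *Krt7* and *Cftr* reads of the 12, and KO female replicate 1 held 1 *Krt19* read beside 12 *Epcam* reads.

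**Figure D3:**
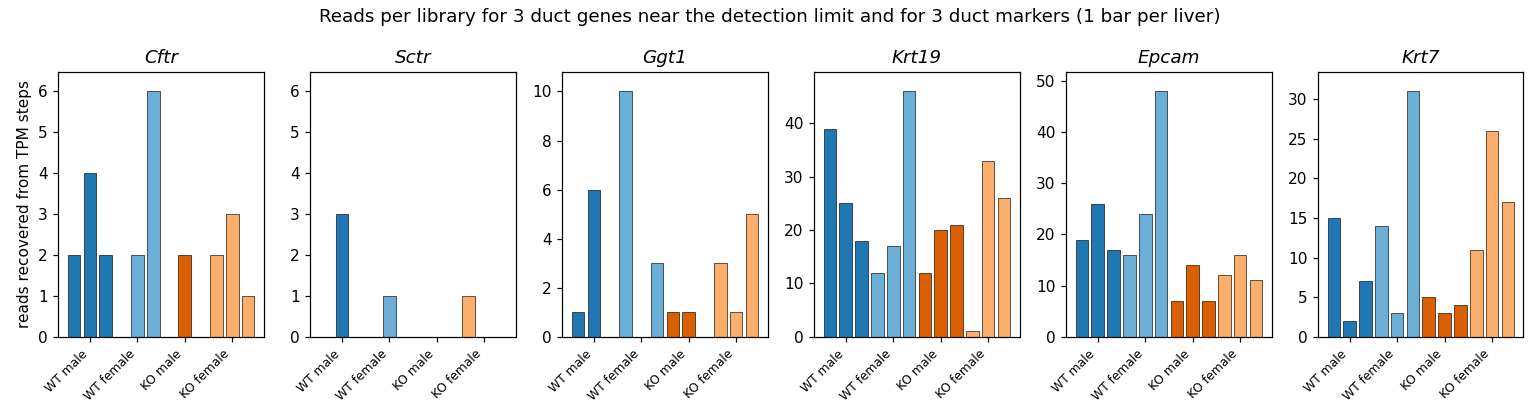
Reads recovered from the TPM steps for *Cftr*, *Sctr* and *Ggt1* and for the duct markers *Krt19*, *Epcam* and *Krt7*, 1 bar per liver, coloured by group; the axes start at 0 and differ between panels. *Cftr*, *Sctr* and *Ggt1* reach at most 6, 3 and 10 reads, and *Epcam* is at 16 reads or fewer in every KO library.

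*Slc4a2*, the chloride and bicarbonate exchanger (ENSMUSG00000028962, chromosome 5, 24423837 to 24440950, plus strand), was measured far above this limit, at 609 to 1023 reads per library. It was at 10.7, 9.57 and 14.1 TPM in the WT males, 12.2, 12.5 and 13.4 in the WT females, 16.3, 15.9 and 22.2 in the KO males and 17.1, 17.8 and 18.0 in the KO females. Every KO liver was above every WT liver as deposited. The log2 fold change was 0.53 (SE 0.117, limma adjusted p = 0.00182; exact permutation p = 0.005, the smallest of 400 arrangements). After rescaling, the levels were 14.1 ± 1.44 TPM in WT and 15.2 ± 1.25 TPM in KO (SD, n = 6), the ranges overlapped and the log2 fold change was 0.10 (SE 0.0913, limma adjusted p = 0.428). The gene's end overlaps *Fastk* on the opposite strand, and since use of strand is not given in the sources used here, reads from the shared stretch cannot be told apart.

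*Aqp1*, the water channel (ENSMUSG00000004655, chromosome 6, 55336432 to 55348555, plus strand), had the highest level of the 10 genes in both genotypes. It was at 34.3, 45.7 and 41.4 TPM in the WT males, 60.0, 42.9 and 42.0 in the WT females, 32.8, 21 and 53.5 in the KO males and 101, 39.99 and 73.7 in the KO females. The KO livers were spread more widely and held both the lowest and the highest of the 12 values. The log2 fold change was 0.11 (SE 0.256, limma adjusted p = 0.737) and, after rescaling, -0.35 (SE 0.253, adjusted p = 0.299), so its sign depended on the scaling. AQP1 is also abundant in endothelium and red cells. The summed TPM of 12 endothelial markers ran from 66.8 to 104 in WT and from 41.1 to 161 in KO, and *Aqp1* divided by this sum stayed between 0.514 and 0.591 in WT and between 0.511 and 0.715 in KO. The livers highest and lowest in *Aqp1*, KO female replicate 1 and KO male replicate 2, were also highest and lowest in the endothelial sum. Of these markers 2 were higher and 2 lower in KO past the test as deposited, and 1 higher and 4 lower after rescaling. Over both sexes, the erythroid list had 0 of 5 tested genes called on either scale. Within sexes *Alas2*, the heme synthesis enzyme of red cells, was called in both and in opposite directions, at -1.87 in males and 1.13 in females (limma adjusted p = 1.36e-05 and 0.000726). Its interaction was -3.002 (limma adjusted p = 4.29e-05). Its reads were 2616 to 3207 in the WT males and 324 to 804 in the other groups. The hemoglobin genes *Hba-a1*, *Hba-a2*, *Hbb-bs* and *Hbb-bt* differed by 0.04, 0.06, 0.30 and 0.41 in males. In females they differed by 0.46, 0.52, 0.65 and 0.37, and none was called in either sex. The summed TPM of the 7 erythroid markers was 564 to 1240 in the KO males and 1462 to 3396 in the KO females, without overlap. In WT it was 788 to 1179 in the males and 1006 to 2161 in the females, with overlap. *Aqp1* was also lower in the KO males than in the KO females, as given with the sex comparison. Between WT males and WT females *Aqp1* differed by -0.24 (limma adjusted p = 0.674). The part of either cell type in the *Aqp1* level was not tested.

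*Slc5a1*, the sodium and glucose cotransporter (ENSMUSG00000011034, chromosome 5, 33104219 to 33162870, plus strand), was low in WT and higher in every KO liver. It was at 0.355, 0.0993 and 0.187 TPM in the WT males, 0.378, 0.391 and 0.450 in the WT females, 2.23, 2.56 and 2.21 in the KO males and 2.29, 3.74 and 3.56 in the KO females. In reads, this was 5 to 26 per WT library and 79 to 156 per KO library. The highest WT value was well under the lowest KO value, and KO minus WT was 1.51 on the log2(TPM + 1) scale (SE 0.115, limma adjusted p = 2.66e-07). The difference was 1.30 after rescaling (SE 0.123, adjusted p = 3.92e-06). Since the gene reached the filter only through KO, it was also tested with no filter on the mean, where limma gave an adjusted p of 6.46e-07 and exact permutation, which uses no filter, gave 0.005. From 90 WT and 675 KO reads, the KO to WT ratio adjusted for the worth of 1 read was 9.02 (exact 95% interval 7.23 to 11.4, counting error only). The log2(TPM + 1) difference understates a change at this level.

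*Slc10a2*, the sodium-dependent bile acid transporter of the duct's apical membrane (ENSMUSG00000023073, chromosome 8, 5083219 to 5105351, minus strand), varied widely within WT. It was at 17.3, 16.3 and 4.68 TPM in the WT males, 3.01, 6.57 and 4.58 in the WT females, 28.9, 29.9 and 46.4 in the KO males and 19.5, 25.7 and 19.3 in the KO females. A pair of WT males stood above the other 4 WT livers, and the lowest KO female at 19.3 TPM was only just above the highest WT male at 17.3. The log2 fold change was 1.77 (SE 0.275, limma adjusted p = 0.000131), and 1.34 after rescaling (SE 0.297, adjusted p = 0.00309), when the WT range of 3.28 to 22.7 TPM overlapped with the KO range of 15.4 to 35.0. Hepatocytes take up bile acids across their basolateral membrane with the related carrier NTCP (*Slc10a1*), which was at 471 ± 113 TPM in WT and 184 ± 22.3 TPM in KO (SD, n = 6). Within each library, the log2 ratio of *Slc10a2* to *Slc10a1*, each as TPM + 1, was -5.81 ± 1.21 in the WT livers and -2.71 ± 0.368 in the KO livers (SD, n = 6), a difference of 3.10 (exact permutation p = 0.005, adjusted over 8 pairs 0.04).

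*Bicc1* (ENSMUSG00000014329, chromosome 10, 70922832 to 71159700, minus strand) had the largest difference of the 10 genes on the log2(TPM + 1) scale. It was at 0.903, 0.997 and 0.620 TPM in the WT males, 0.995, 0.951 and 1.97 in the WT females, 6.13, 3.10 and 9.09 in the KO males and 8.99, 7.58 and 7.82 in the KO females. WT female replicate 3 was the highest WT liver and KO male replicate 2 the lowest KO liver, and the groups did not overlap on either scale. The log2 fold change was 1.94 (SE 0.192, limma adjusted p = 2.88e-06) and 1.61 after rescaling (SE 0.182, adjusted p = 1.61e-05). The summed TPM of 12 stellate cell and fibroblast markers was 70.6 to 189 in WT and 206 to 504 in KO, with WT female replicate 3 the highest in WT and KO male replicate 2 the lowest in KO, as for *Bicc1*. Of these 12 markers 9 were higher and 0 lower past the test as deposited, and 6 higher and 1 lower (*Lrat*, named after its value was seen) after rescaling. Their part in the *Bicc1* difference was not tested.

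**Figure D4:**
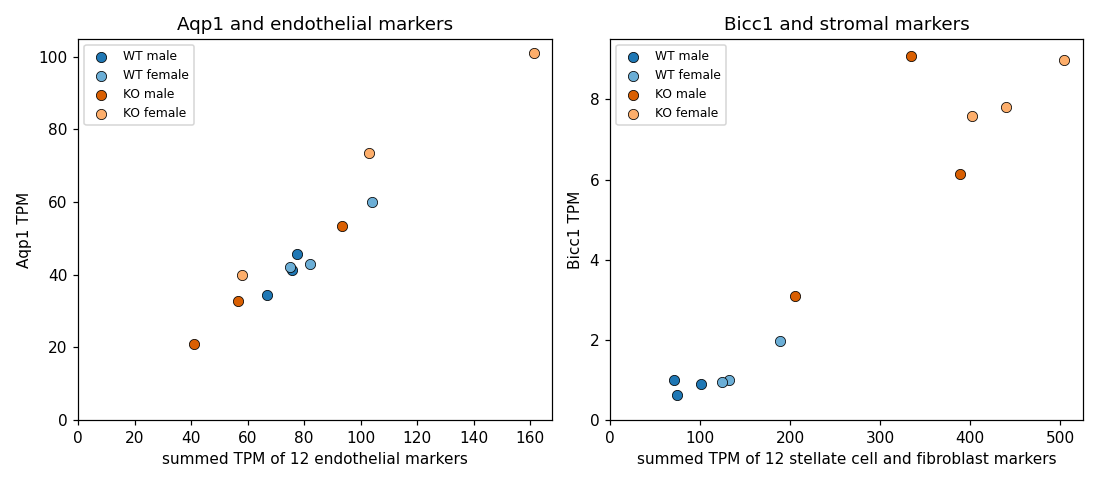
Left, *Aqp1* TPM against the summed TPM of 12 endothelial markers; right, *Bicc1* TPM against the summed TPM of 12 stellate cell and fibroblast markers; each point is 1 of 12 livers, coloured by group. *Aqp1* is higher where the endothelial sum is higher in the KO livers, with KO livers at both ends (21 and 101 TPM), and *Bicc1* is at 1.97 TPM or less in WT and 3.10 TPM or more in KO.

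*Pkhd1*, the gene of autosomal recessive polycystic kidney and liver disease (ENSMUSG00000043760, chromosome 1, 20057779 to 20618064, minus strand), was measured at 75 to 280 reads per library. It was at 1.01, 0.472 and 0.669 TPM in the WT males, 0.967, 1.2 and 1.54 in the WT females, 0.814, 0.795 and 1.92 in the KO males and 1.28, 1.19 and 1.01 in the KO females. The ranges overlapped, with 2 WT males below every KO liver and 1 KO male above every WT liver. The log2 fold change was 0.14 (SE 0.150, limma adjusted p = 0.452; exact permutation p = 0.455) and -0.09 after rescaling (SE 0.13, adjusted p = 0.601), so its sign depended on the scaling and neither value exceeded its spread. Set against *Krt19* within each library, *Pkhd1* differed by 0.26 on the log2 scale (exact permutation p = 0.44, adjusted over 8 pairs 0.89). Both genes are low, so the 1 added to each TPM understates a change of this ratio too. *Gm37315* lies within *Pkhd1* on the same strand and is a row of its own in the table, and how reads were split between them is not given in the sources used here.

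*Pkd2*, the channel of the ciliary polycystin complex (ENSMUSG00000034462, chromosome 5, 104459450 to 104505819, plus strand), was at 5.35, 5.65 and 5.73 TPM in the WT males and at 6.95, 5.84 and 7.40 in the WT females. It was at 8.13, 8.52 and 11.9 TPM in the KO males and at 12.8, 6.74 and 9.89 in the KO females. KO female replicate 2 lay within the WT range and the other 5 KO livers above it. The log2 fold change was 0.55 (SE 0.145, limma adjusted p = 0.00584) and 0.14 after rescaling (SE 0.117, adjusted p = 0.364). Its partner *Pkd1* was at 3.20 ± 0.352 TPM in WT and 5.42 ± 1.00 TPM in KO (SD, n = 6), and the log2 ratio of *Pkd2* to *Pkd1* within a library was 0.77 ± 0.223 in the WT livers and 0.72 ± 0.330 in the KO livers. That difference had an exact permutation p of 0.775 (0.89 adjusted over 8 pairs).

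Among WT livers the order of the mean TPM was *Aqp1*, *Slc4a2*, *Slc10a2*, *Pkd2*, *Bicc1*, *Pkhd1*, *Slc5a1*, *Ggt1*, *Sctr* and *Cftr*. Neighbours in that order overlapped between livers except *Aqp1* and *Slc4a2*, *Pkd2* and *Bicc1*, and *Pkhd1* and *Slc5a1*. In KO, *Slc10a2* stood above *Slc4a2* in mean TPM, although the ranges of these neighbours overlapped, and *Slc5a1* stood above *Pkhd1* without overlap (2.21 to 3.74 against 0.795 to 1.92 TPM). The other within-library pairs did not differ between genotypes past the test. *Aqp1* relative to the hepatocyte water channel *Aqp8* was lower in KO by a log2 ratio of -1.45 (exact permutation p = 0.03, adjusted over 8 pairs 0.12), and *Cftr* relative to the calcium-activated chloride channel *Ano1*, and *Cftr*, *Sctr* and *Ggt1* relative to *Krt19*, had adjusted exact permutation p-values of 0.89. With 1 added to each TPM, ratios of *Cftr*, *Sctr* and *Ggt1* move almost wholly with the other gene.

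The genotype difference was then read within each sex. In males, 5 of the 7 tested genes were higher and 0 lower, beside 43.3% of all genes higher and 2.81% lower. In females, 3 were higher (*Bicc1*, *Slc10a2* and *Slc5a1*) and 0 lower, beside 29.1% of all genes higher and 4.68% lower. After rescaling, 2 were higher in males, *Bicc1* and *Slc5a1*, beside 13.7% of all genes, and the same 3 in females, beside 15.1%. *Slc4a2* differed by 0.62 in males and 0.44 in females (limma adjusted p = 0.00955 and 0.058) and *Pkd2* by 0.66 and 0.45 (0.0216 and 0.118). After rescaling these were 0.08 and 0.11 for *Slc4a2* and 0.15 and 0.13 for *Pkd2*, none of them past the test. As deposited, *Pkd2* missed the threshold in males without WT male replicate 1 or KO male replicate 3 (limma adjusted p = 0.0567 and 0.0831). It passed in females without KO female replicate 2 (0.0228). *Slc4a2* passed in females without WT male replicate 2, WT male replicate 3 or KO male replicate 3 (limma adjusted p = 0.0482, 0.0383 and 0.0272). *Bicc1* differed by 1.86 in males and 2.01 in females, *Slc5a1* by 1.46 and 1.56, and *Slc10a2* by 1.53 and 2.01, all on the log2(TPM + 1) scale with limma adjusted p-values of at most 0.00706. After rescaling, *Slc10a2* in males was 0.99 and no longer passed (limma adjusted p = 0.101). The interaction of genotype and sex was called for 0 of the 7 genes, beside 0.912% of all genes, and for 0 at an unadjusted p under 0.05, beside 8.85% of all genes. The largest was *Aqp1*, with -0.26 in males, 0.48 in females and an interaction of -0.74 (SE 0.482, limma adjusted p = 0.683). After rescaling, *Aqp1* was at -0.83 in males and 0.13 in females, with an interaction of -0.96 (SE 0.442, limma adjusted p = 0.654).

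**Figure D5:**
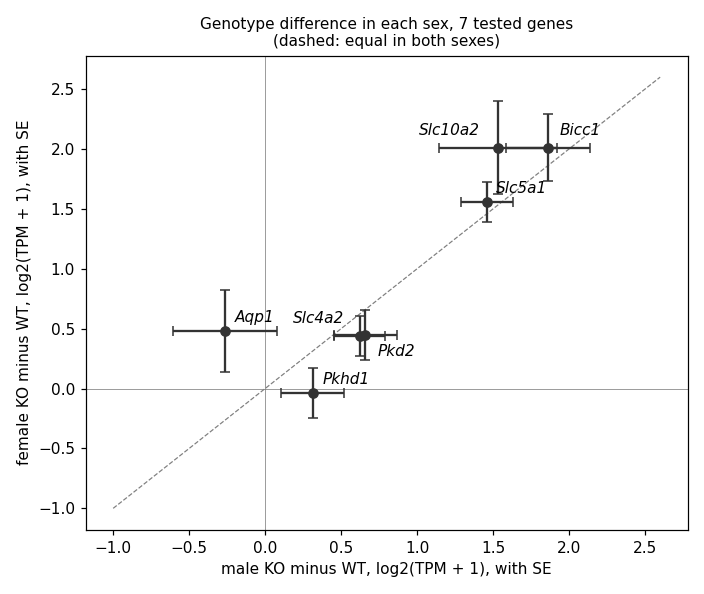
KO minus WT difference in log2(TPM + 1) in males (horizontal) and females (vertical) with standard errors for the 7 tested genes; the dashed line marks equal differences. *Bicc1*, *Slc10a2* and *Slc5a1* are above 1.4 in both sexes, and *Aqp1* and *Pkhd1* lie on opposite sides of 0 in males and females (*Pkhd1* 0.31 and -0.04).

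The sex difference was called for 0 of the 7 genes in WT, beside 5.74% of all genes, and for 0 in KO, beside 0.0814%. The 705 genes behind the WT share became 290 to 1696 with each liver left out in turn. At an unadjusted p under 0.05 there was 1 such gene of the 7 in WT (*Slc10a2*), beside 25.6% of all genes, and 1 in KO (*Aqp1*), beside 5.33%. *Slc10a2* was higher in WT males than in WT females by 1.14 on the log2 scale (SE 0.388, limma adjusted p = 0.1). With each of the 12 livers left out in turn, this difference ran from 0.84 to 1.69 (limma adjusted p from 0.00247 to 0.345). It passed only without WT male replicate 3, the low male at 4.68 TPM, where it was 1.69. *Aqp1* was lower in KO males than in KO females by a log2 difference of -0.98 (limma adjusted p = 0.841). The hemoglobin genes *Hba-a1*, *Hba-a2* and *Hbb-bs* differed the same way, by -1.33, -1.27 and -1.20 (limma adjusted p-values of 0.744 to 0.763). The 12 endothelial markers also had lower means in KO males, by -1.01 to -0.08, with 0 called and 4 at an unadjusted p under 0.05 (smallest limma adjusted p 0.692). The part of red cells and endothelium in this *Aqp1* value was not tested.

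The labels name no batch. The column headers give all 12 libraries the same flow cell and lane tag. Most titles carry neighbouring numbers, but KO female replicate 1 and WT female replicate 3 have much earlier ones. Between that pair, *Bicc1* was at 1.97 TPM in the WT and 8.99 TPM in the KO liver, *Slc5a1* at 0.450 and 2.29 TPM and *Slc10a2* at 4.58 and 19.5 TPM. WT male replicate 2 had a library number far from the rest. Over both sexes, *Bicc1*, *Slc10a2* and *Slc5a1* passed limma's threshold on both scales with each of the 12 livers left out in turn. Each sample has a number of its own in its title, but the labels do not say outright that each is a separate mouse, and p-values measure the spread between these samples.

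Other genes of ductal secretion, were read from a list of 21. Of 16 tested, 10 were higher and 2 lower in KO as deposited (median log2 fold change 0.59), and 6 were higher and 4 lower after rescaling (0.19). Among all tested genes 50.1% were higher and 4.82% lower as deposited, and 20.6% and 18.8% rescaled, and these shares hold beside each list below. *Slc51b*, a subunit of the basolateral bile acid exporter, rose by 4.11 on the log2 scale (limma adjusted p = 1.01e-09). *Sstr2*, the somatostatin receptor that restrains secretion, rose by 2.16, *Itpr3*, the apical calcium release channel of duct cells, by 1.61 and *Slc4a4*, a sodium bicarbonate cotransporter, by 1.56 (limma adjusted p-values of at most 1.504e-06), and all 4 passed after rescaling as well. The 2 lower genes, named after their values were seen, were *Aqp4* and *Vipr1*, the receptor for vasoactive intestinal peptide. Of the 10 higher genes 3 (*Slc51b*, *Itpr3* and *Sstr2*) reached the filter only through KO as deposited, and of the 6 after rescaling 1 (*Sstr2*) did so. *Aqp4* reached it only through WT. *Slc9a3* was listed at 0 in every library.

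The list of 19 other cilium and cystic disease genes had 10 higher and 0 lower as deposited (median 0.44), and 5 higher and 2 lower after rescaling (median 0.08), close to the medians of all genes. *Glis3*, a transcription factor of cystic disease, was at 0.0940 ± 0.0535 TPM in the WT livers and 1.501 ± 0.359 TPM in the KO livers (SD, n = 6), and rose by 1.18 on the log2 scale (limma adjusted p = 2.23e-06). *Kif3a*, a motor of ciliary transport, rose by 0.91, *B9d1*, of the ciliary transition zone, by 0.89 and *Trpv4*, a calcium channel of the cilium, by 0.70 (limma adjusted p-values of at most 0.00466), and all 4 passed on both scales. *Glis3*, *B9d1*, *Trpv4* and *Anks6* reached the filter only through KO on both scales. Without these 4 the list had 6 higher and 0 lower as deposited, and 1 higher (*Kif3a*) and 2 lower after rescaling. The 2 genes lower after rescaling were *Ift20* and *Cys1*, also named after their values were seen.

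Around *Ggt1*, 6 of 8 tested genes of the gamma-glutamyl cycle were higher and 0 lower as deposited, beside 50.1% and 4.82% of all genes, and 4 were higher and 0 lower after rescaling, beside 20.6% and 18.8%. *Ggt6*, another family member, was at 19.5 ± 2.68 TPM in WT and 44.8 ± 3.64 TPM in KO (SD, n = 6; log2 fold change 1.16, limma adjusted p = 1.39e-06), far above *Ggt1* in both. *Dpep1*, which splits the dipeptide that GGT releases, rose by 2.10, *Gss*, glutathione synthetase, by 1.43 and *Gsr*, glutathione reductase, by 0.94 (limma adjusted p-values of at most 1.32e-05). After rescaling, *Ggt6*, *Dpep1*, *Gss* and *Gsr* rose by 0.71, 1.85, 0.97 and 0.48 (limma adjusted p-values of at most 0.00751). *Dpep1* reached the filter only through KO, as did *Aqp7* below. Among 7 other water channels, 5 were tested. *Aqp7* rose by 2.43 and *Aqp8* by 1.56, and *Aqp4* fell by 0.73 and *Aqp9* by 0.41 on the log2 scale, each past the limma threshold on both scales (adjusted p of at most 0.0153 as deposited). After rescaling their differences were 2.22, 1.10, -0.88 and -0.87. *Aqp11*, named after its value was seen, was then also called lower, which made 2 higher and 3 lower of the 5.

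The list of 16 bile duct epithelium genes had 10 higher and 1 lower (*Epcam*) of 13 tested as deposited, and 8 higher and 2 lower of 12 after rescaling. The median log2 fold change was 1.85 as deposited. Its largest changes were *Spp1* (osteopontin, 3.76), *Cldn7* (a claudin, 3.28), *Prom1* (a progenitor surface protein, 3.03) and *Krt8* (a keratin that hepatocytes also make, 2.87), with limma adjusted p-values of at most 3.73e-07. *Cldn7* and *Cldn4* reached the filter only through KO, and after rescaling *Cldn7* did so and *Epcam* only through WT. Hepatocytes can turn on several of these genes under stress. *Sox9*, a duct transcription factor named after its value was seen, rose by 1.57 (limma adjusted p = 0.000158) and was at 52 to 299 reads per WT library and 298 to 647 reads per KO library. *Onecut1*, another such factor, also named after its value was seen, differed by -0.93 as deposited (limma adjusted p = 0.115) and was lower after rescaling (-1.34, adjusted p = 0.0311). By sex *Onecut1* differed by -1.73 in females (limma adjusted p = 0.0491) and -0.14 in males (adjusted p = 0.867), with no call for the interaction (adjusted p = 0.627). In the authors' deposited table *Onecut1* has a log2 fold change of -1.82. The summed TPM of the list was 417 to 757 in WT and 3233 to 4867 in KO, without overlap. *Krt8*, *Krt18* and *Spp1* made up 87.8% to 91.2% of this sum in WT and 95.2% to 96.5% in KO, and the other 13 genes summed to 41.4 to 87.3 TPM in WT and 131 to 232 TPM in KO. The sum therefore says little of *Krt19*, *Krt7* and *Epcam*, whose reads are given above. The part of the list in the rises of *Bicc1*, *Slc10a2* and *Slc5a1* was not tested.

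Likeness of pattern was read for the 7 tested genes. By Pearson's r of log2(TPM + 1) over the 12 samples, which share the genotype difference, the tested genes most like *Bicc1* were *Loxl2* (r = 0.991) and *Col5a1* (0.988), and those most like *Slc5a1* were *Gucy2c* (0.987) and *Cx3cl1* (0.984). *Slc10a2* was most like *Eif2s2* and *Cgn* (0.976 each), *Slc4a2* most like *Vps11* and *Cd276* (0.974 each) and *Aqp1* most like *Adgrl4* (0.963) and *Ddah2* (0.961). *Pkd2* was most like *Evi2b* (0.970) and *Pou6f1* (0.966), and *Pkhd1* most like *Pola1* (0.932) and *Mrpl1* (0.916).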

How the data were processed

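Whole-liver RNA of 12 samples (4 groups of 3) was measured as TPM, deposited by the authors with 1 column per sample, each summing to 1000000. The authors' deposited table also holds their own KO against WT fold change, log2 fold change and FDR p-value (2 decimals). The submitters' processing notes name GRCm38 and edgeR. Aligner, counter and use of strand are not given in the sources used here. Groups came from sample titles, and 0 columns were unmatched. Positions came from GENCODE mouse release 21 by identifier (25635 of 25676 matched). Values were log2(TPM + 1), and genes with a mean of at least 0.5 TPM were tested with limma 3.58.1 in R 4.3.3 (intensity trend, sex as covariate; 4 group means within and between sexes), with Benjamini-Hochberg adjustment over all tested genes and a threshold of 0.05. The script was tested on simulated data. Single genes and ratios used exact permutation within sex (400 arrangements, two-sided, smallest p 0.005). Reads were recovered where all 12 values were whole multiples of 1 step within 0.02 reads, and KO to WT ratios of reads were adjusted for exposure, the inverse of the TPM worth of 1 read, summed over the libraries of each genotype. Named genes were the 10 genes, the up to 4 largest called changes of each list, the partners of ratio pairs and the 2 most similar genes. The genes and lists were chosen with earlier results of these data known. Alternatives covered pseudocount, filter, scaling, trend, a covariate for the early title numbers and each sample left out.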

Additional observations from a re-analysis of the deposited data

Results flagged for a closer look

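In each genotype of 6 livers, the gap between an extreme value and its neighbour was set against the whole range on the log2(TPM + 1) scale, for 20 sets of a gene and a genotype. A gap above Dixon's 95% critical value is expected by chance in about 1 of 20 groups, and the genotypes pool both sexes. Among WT livers, *Bicc1* was highest in WT female replicate 3, at 1.97 TPM, with a gap of 0.654 of the range. In KO livers, *Slc4a2* was highest in KO male replicate 3, at 22.2 TPM, with a gap of 0.628. *Sctr* in KO had a gap of 1, since its single KO read fell in KO female replicate 1. No difference of the genotype effect between the sexes passed the test for the 7 tested genes.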

How the results depend on the processing

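Results were recomputed with pseudocounts of 0.1 and 0.5, other filters, 2 rescalings, the 20 most abundant genes left out, no intensity trend, a covariate for the early title numbers, and each liver left out. Under the alternatives run, *Bicc1*, *Slc5a1* and *Slc10a2* over both sexes kept their direction and limma call. Median-of-ratios and TMM rescaling left 3 of the 7 tested genes called higher, and in males 2, with 2933 and 2943 genes called there in place of 5663; the cause was not tested. Both rescalings gave log2 differences, by limma and by exact permutation, of 0.097 and 0.095 for *Slc4a2*, 0.14 and 0.14 for *Pkd2*, -0.35 and -0.35 for *Aqp1*, and -0.093 and -0.094 for *Pkhd1*. They turned the interaction of *Slc4a2* to -0.030 and -0.025 and its WT sex difference to 0.053 and 0.0526. A pseudocount of 0.1 turned the interaction of *Slc5a1* to 0.36. The early-number covariate gave 409 genes called for sex in WT in place of 705, and turned the KO sex differences of *Pkhd1* to 0.038 and *Pkd2* to 0.11. With each liver left out in turn, 75 to 176 genes were called for the interaction (176 without WT male replicate 3), 6 to 10 for sex in KO (6 without KO male replicate 2) and 290 to 1696 for sex in WT. Each of the 6 WT livers moved that WT count by over 1.5 times, and without WT male replicate 3 it was 1696, with 1 of the 7 tested genes higher (*Slc10a2*) in place of 0. Differences that changed sign this way, none of them past the test, ran for *Aqp1* from -0.063 to 0.29 by limma and from -0.058 to 0.29 by exact permutation, and from -0.60 to 0.060 in males. They ran for *Pkhd1* in females from -0.13 to 0.057, for *Ggt1* from -0.083 to 0.011, and for the interaction from -0.45 to 0.20 for *Bicc1* and from -0.0094 to 0.41 for *Pkd2*. For the KO sex difference they ran from -0.12 to 0.10 for *Slc4a2*, -0.26 to 0.090 for *Pkhd1* and -0.24 to 0.18 for *Pkd2*. Ratios ran from -0.072 to 0.061 for *Cftr* to *Ano1* and -0.16 to 0.073 for *Pkd2* to *Pkd1*. Against *Krt19* they ran from -0.13 to 0.26 for *Cftr*, -0.16 to 0.25 for *Sctr*, -0.0016 to 0.41 for *Pkhd1* and -0.16 to 0.25 for *Ggt1*, each lowest without KO female replicate 1. On rescaled TPM with each liver left out, chosen after seeing the data, *Bicc1* was at 1.53 to 1.77, *Slc10a2* at 1.11 to 1.52 and *Slc5a1* at 1.24 to 1.38. No paired analysis was possible because the replicate numbers only follow the order of the samples and pair no samples. Depth limits *Cftr*, *Sctr* and *Ggt1*, whose intervals allow both higher and lower KO levels.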
